A study of Homo sapiens with 3 samples.

Results

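Keratins were followed in the human cell line KYSE140, grown from a squamous carcinoma of the oesophagus, as the set of genes whose symbol is KRT followed by a digit and which had a probe set carrying that symbol alone. The rule gave 44 keratin genes of 19775 genes measured, on 56 probe sets, and where a gene had several, the brightest on the log2 scale over the arrays stood for it. Pseudogenes and the antisense gene KRT10-AS1 were left out. KRT6A, KRT6B, KRT6C, KRT17, KRT26, KRT28, KRT34, KRT39, KRT81, KRT82 and KRT86 had no single-symbol probe set and were not analysed here. RNA came from cells left untreated (1 array) or given cisplatin, a platinum drug that crosslinks DNA, for 12 h at a labelled 10 mM (2 arrays, titled B1 and B2). That concentration is far above those usual for cultured cells, so its unit is in doubt. The labels name the same line and serum-containing medium for every array and do not say whether B1 and B2 were separate cultures, so any p-value measures only the spread between these arrays, which may be technical. Levels are intensities on a linear scale, 1 value per probe set and array, and differences are log2 of a cisplatin array minus log2 of the untreated array.

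Keratins are the intermediate filament proteins of epithelia. A filament is built from an acidic type I chain paired with a basic type II chain, so epithelia make them in pairs: KRT5 with KRT14 in the basal layer of stratified epithelium, KRT4 with KRT13 in the upper layers of the oesophagus, KRT1 with KRT10 in the upper epidermis, and KRT8 with KRT18 in simple epithelium. Squamous carcinomas commonly keep the basal pair and often make the simple pair as well. The filaments are anchored to desmosomes and hemidesmosomes and carry mechanical load.

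B2 stood apart from the other arrays over all genes. The SD of the log2 difference across genes was 0.33 for B1 against untreated, 0.60 for B2 against untreated and 0.56 for B2 against B1. Among the keratins the SD was 0.17 in B1, 0.70 in B2 and 0.71 between B2 and B1. Without KRT5 and KRT14 it was 0.48 in B2 and 0.48 between B2 and B1. These genes were left out for their high B2 values, so the 0.48 is not comparable with the SD over all genes. Because B2 stood apart, B1 and B2 are given separately throughout, and the values of B1 are the result without B2. The log2 difference between the 3' and 5' control probe sets, a measure of RNA integrity, was 0.055 (untreated), 0.0031 (B1) and -0.0012 (B2) for GAPDH and 1.36, 1.44 and 1.31 for ACTB.

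In B1 the keratins stayed near their untreated levels, whereas in B2 the basal pair KRT5 and KRT14 was higher and KRT13, KRT15 and KRT8 were lower. In B1 the 44 differences ran from -0.38 to 0.34, and 0 keratins were at least 2-fold higher (0.238% of all genes were) or at least 2-fold lower (1.51% of all genes). In B2 they ran from -1.37 to 3.10. There, 2 of 44 keratins (4.55%) were at least 2-fold higher, against 2.99% of all genes, and 3 of 44 (6.82%) were at least 2-fold lower, against 4.5% of all genes, so these shares lay close to the background. The same 5 genes were at least 2-fold from both other arrays, which held for 2.1% of all genes upwards and 2.41% downwards. No keratin was at least 2-fold higher (0.142% of all genes) or lower (0.678%) in both cisplatin arrays. The median keratin difference was 0.076 in B1 and 0.15 in B2, and the median over all genes was 0.027 and 0.055. B2 lay further from the untreated array than B1 did for 35 of 44 keratins (79.5%) and for 64.1% of all genes.

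No keratin passed limma's test of cisplatin against untreated over all genes (0 of 44 at an adjusted p of 0.05, background 0%). The smallest limma adjusted p among keratins was 0.969. At an unadjusted p under 0.05 there were also 0 of 44, against 2.86% of all genes. Only the spread between B1 and B2 entered the fit as residual (1 degree of freedom), and these arrays lay far apart for the keratins that differed, so the standard errors (SE) of those genes were of the size of their differences. Every keratin value below is therefore a description of single arrays.

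**Figure D1:**
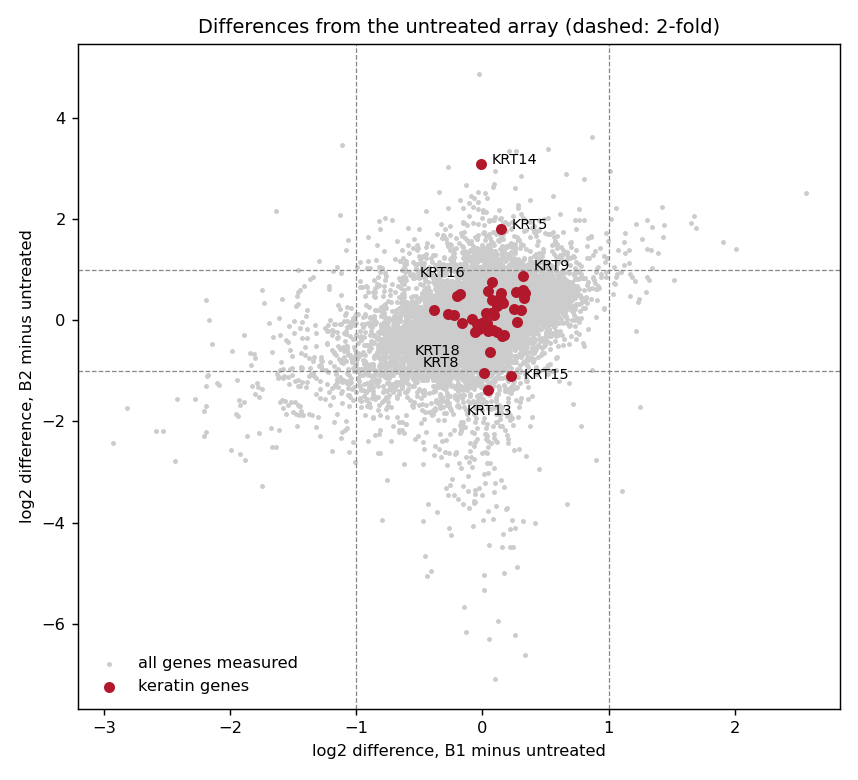
Each point is 1 gene, with its log2 difference from the untreated array in B1 (horizontal) and in B2 (vertical), and dashed lines mark 2-fold. The keratins (dark red) lie between -0.38 and 0.34 on the B1 axis and spread from -1.37 (KRT13) to 3.10 (KRT14) on the B2 axis.

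The 3 basal keratins did not differ in one direction in B2. KRT14, the type I chain of the basal layer, had intensities of 278 (untreated), 276 (B1) and 2372 (B2). B1 matched the untreated array, and B2 was 8.55-fold above it. The log2 differences were -0.0094 and 3.10 (limma mean of the pair 1.54, SE 1.56, adjusted p = 0.969), and 7 of 19775 genes, KRT14 included, had a B2 difference at least as high. KRT5, its type II partner, was at 1217 (untreated), 1345 (B1) and 4251 (B2). Again only B2 stood away, 3.49-fold above untreated (log2 differences 0.14 and 1.80, mean 0.97, SE 0.85, adjusted p = 0.969), and 100 genes had a B2 difference at least as high. KRT15, a second type I chain of basal cells, went from 253 (untreated) and 296 (B1) to 118 in B2, where it was 2.15-fold lower than untreated (log2 difference 0.23 in B1 and -1.10 in B2). KRT15 was thus low in the array in which KRT14 was high. Each of these genes had 1 probe set.

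The KRT5 promoter is shown because KRT5 is the gene of the basal pair with an entry in the RefSeq promoter table. It is the 250 bases before the annotated start, on the minus strand of GRCh38.p14 at chr12:52520395-52520644, written 5′ to 3′ with no capitals, as none of 4 motifs searched was in it.
KRT5: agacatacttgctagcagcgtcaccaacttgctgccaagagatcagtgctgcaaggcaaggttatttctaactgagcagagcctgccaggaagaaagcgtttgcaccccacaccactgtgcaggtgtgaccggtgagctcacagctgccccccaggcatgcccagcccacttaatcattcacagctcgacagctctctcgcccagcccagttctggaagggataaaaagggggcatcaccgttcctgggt
The motifs were the TATA box TATAAA, the AP-1 site TGANTCA, the GC box GGGCGG and the E box CACGTG, each on both strands. Of 44 keratins, 29 had an entry in that table. In the same window, TATAAA was present in 15 of 29 keratins (51.7%) and in 11.1% of 27305 genes' promoters. The AP-1 letters were in 0 of 29 keratins and 6.6% of all, the GC box in 4 (13.8%) and 42.3%, and the E box in 1 (3.45%) and 6.49%. Keratin windows had a median GC content of 45.2%, against 58% over all genes. A match describes letters and no binding, and its absence says only that these letters are not in this window.

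Of the keratins made by activated and wounded keratinocytes, KRT16 was the one with a single-symbol probe set. KRT16 had intensities of 75.3 (untreated), 79.2 (B1) and 127 (B2), a B2 difference of 0.76 (1.69-fold) and a B1 difference of 0.073. It was below the 2-fold size rule in both arrays.

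**Figure D2:**
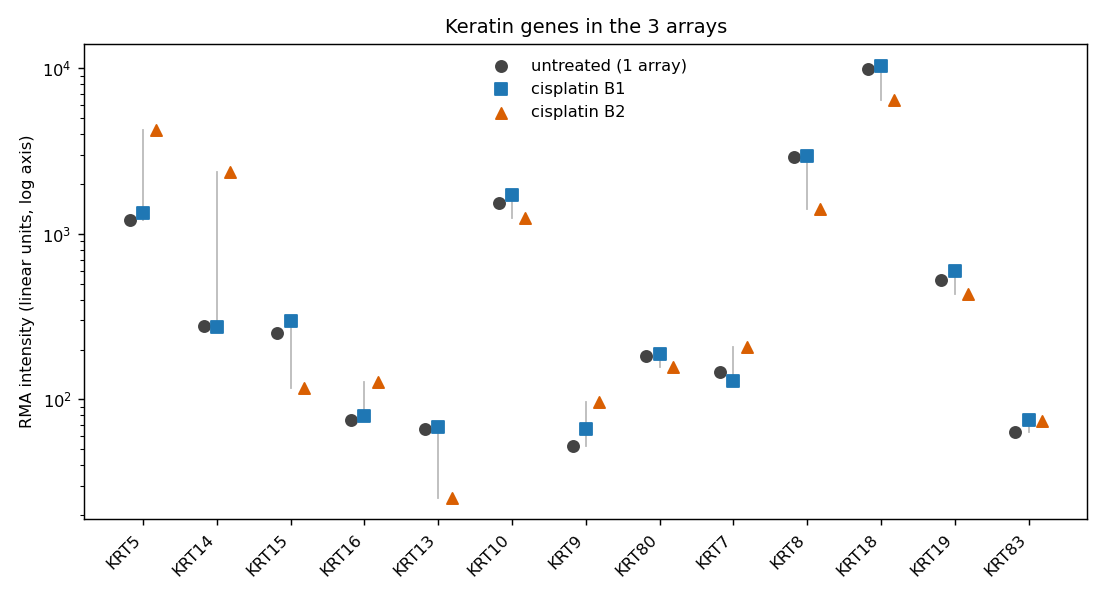
RMA intensities, on a log axis, of the 13 keratins whose mean log2 value was 6 or more or that differed 2-fold in either cisplatin array, with 1 point for each array. Untreated and B1 lie close together for each gene, and B2 lies well above them for KRT5 and KRT14 and below them for KRT15, KRT13 and KRT8.

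Among the keratins of the upper oesophageal layers, KRT13 was lower in B2. KRT13, the type I chain of the mucosal pair, had intensities of 66.0 (untreated), 68.2 (B1) and 25.5 (B2), a 2.59-fold lower level in B2 (log2 differences 0.047 and -1.37). B2 alone was low. The medians of all probe sets were 34.8, 35.9 and 35.6, so in B2 KRT13 lay below the array's median. Its partner KRT4 went the other way, from 36.7 and 44.2 to 54.4 in B2 (0.27 and 0.57), and its other probe set differed by 0.15 and 0.38. KRT78, KRT24 and KRT76 were dim, with B2 differences of 0.20, 0.41 and 0.023. KRT78 had a second probe set with a B2 difference of -0.24.

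The epidermal suprabasal keratins differed less. KRT10, the type I chain of the upper epidermis, had intensities of 1548 (untreated), 1720 (B1) and 1251 (B2), or log2 differences of 0.15 and -0.31. All 3 of its probe sets were above untreated in B1 and below it in B2, with B2 differences from -0.43 to -0.29. Its usual partner KRT1 was dim, at 18.2, 18.7 and 17.6. KRT9, the keratin of palm and sole epidermis, was at 52.7, 65.9 and 96.9, higher in both cisplatin arrays (0.32 and 0.88) and just short of 2-fold in B2. KRT80, a type II chain, was at 183, 189 and 157 (0.047 and -0.22). Of the other 4 keratins of the group, KRT1, KRT2, KRT77 and KRT79, none had an intensity above 33.6, and their B2 differences ran from -0.24 to 0.095.

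The promoters of KRT10 and KRT9 are shown because, of the 4 among the 13 keratins plotted by level that have an entry (KRT5, KRT8, KRT9 and KRT10), theirs hold one of the motifs. Both are on the minus strand of GRCh38.p14, at chr17:40822615-40822864 and chr17:41572060-41572309, 250 bases before the annotated start, from RefSeq. Capitals mark TATAAA in KRT10, whose last base lies 24 bases before the start, and the GC box, on the opposite strand, in KRT9.
KRT10: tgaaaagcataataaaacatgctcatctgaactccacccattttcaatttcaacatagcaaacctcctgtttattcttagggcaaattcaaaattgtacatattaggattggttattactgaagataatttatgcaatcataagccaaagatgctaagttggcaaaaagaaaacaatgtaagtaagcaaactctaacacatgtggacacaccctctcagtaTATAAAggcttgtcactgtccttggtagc
KRT9: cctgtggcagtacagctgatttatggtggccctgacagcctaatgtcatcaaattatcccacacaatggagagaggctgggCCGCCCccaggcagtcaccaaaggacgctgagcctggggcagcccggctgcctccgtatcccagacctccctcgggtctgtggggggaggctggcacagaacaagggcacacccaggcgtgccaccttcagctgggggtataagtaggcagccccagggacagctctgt
KRT5 had neither match.

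The simple epithelial pair was lower in B2. KRT8, the type II chain, had intensities of 2921 (untreated), 2946 (B1) and 1418 (B2), 2.06-fold lower in B2 (log2 differences 0.012 and -1.04) and so just past the size rule. KRT18, its type I partner, was at 9975 (untreated), 10398 (B1) and 6461 (B2), 1.54-fold lower (0.060 and -0.63). For both genes B1 was level with the untreated array. Each rested on 1 probe set of the class ending in _x_at, whose probes can also match other sequences, and these genes have many processed pseudogenes. KRT19, a type I chain found in simple and basal cells, was at 529, 595 and 434 (0.17 and -0.29). KRT7, a type II chain of ducts and glands, was at 146, 129 and 208 (-0.18 and 0.51), although the means over its 4 probe sets were 0.16 in B1 and 0.20 in B2, which turns the sign in B1. KRT20 and KRT23 were dim, with intensities from 6.29 to 12.5.

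Set pair against pair, the basal and simple chains stood apart in B2 and lay near each other in B1. The difference of KRT5 minus that of KRT8 was 0.13 in B1 and 2.85 in B2 on the log2 scale. For KRT14 minus KRT18 it was -0.069 and 3.72. Within the basal pair the B2 difference of the type I chain exceeded that of the type II chain by 1.29, and within the simple pair by 0.42. In the mucosal pair the B2 difference of the type I chain minus that of the type II chain was -1.94, with the partners on opposite sides of the untreated level. These are differences of differences from 1 array each, with no replicate check.

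Hair and cornea keratins, dim apart from KRT83, were each less than 2-fold from the untreated array. Of the 7 measured keratins of the inner root sheath and companion layer, 6 were higher in both cisplatin arrays and 1 (KRT27) lower, and the medians were 0.12 (B1) and 0.34 (B2). Of the 12 hair shaft keratins, both cisplatin arrays were above untreated for 6 and below it for 1 (KRT32), and the medians were 0.12 and 0.22. Over all keratins 20 of 44 (45.5%) were higher in both arrays at any size and 5 (11.4%) lower, against 39.2% and 27.4% of all genes. Of the 32 keratins with a mean log2 value under 6, 16 were higher and 5 lower in both arrays, beside 4717 and 1937 of all 9566 genes under that level. Dim genes were thus more often higher in both arrays than all genes were. The 32 keratins had medians of 0.073 (B1) and 0.15 (B2), beside 0.081 and 0.10 for all genes under that level. KRT83, a hair shaft keratin with a mean log2 value above 6, was at 63.5, 75.6 and 74.4 (0.25 and 0.23), with B1 and B2 close together. The corneal keratins KRT3 and KRT12 had B2 differences of 0.15 and -0.18. The keratin-like gene KRT222 had intensities from 4.49 to 5.43.

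**Figure D3:**
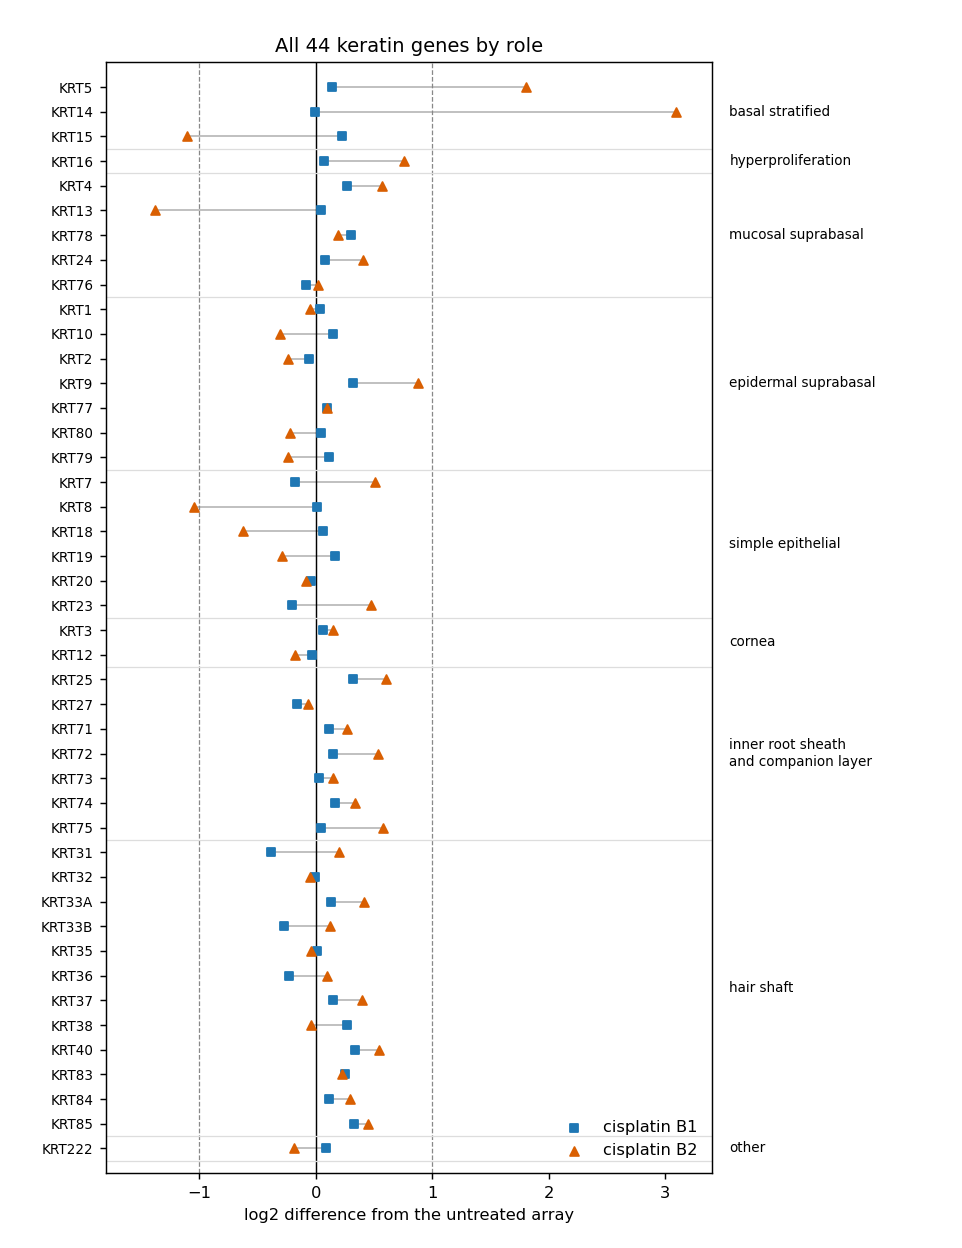
Log2 differences from the untreated array of each of the 44 keratins, with B1 as squares, B2 as triangles and dashed lines at 2-fold, grouped by role. The B1 squares lie between -0.38 and 0.34, and the B2 triangles pass 2-fold for KRT5 and KRT14 upwards and for KRT15, KRT13 and KRT8 downwards.

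Most of the larger B2 differences were in brighter keratins. Of 12 keratins whose mean log2 value was 6 or more, 2 (16.7%) were at least 2-fold higher in B2, against 3.82% of 10209 genes at that level, and 2 (16.7%) at least 2-fold lower, against 7.36%. KRT9 and KRT83 reached that mean only through the cisplatin arrays (untreated log2 values of 5.72 and 5.99), and neither was 2-fold different. Of the 32 dimmer keratins, 0 were at least 2-fold higher and 1, KRT13, was lower. KRT13 fell under that mean only through B2 (log2 values of 6.05 untreated, 6.09 in B1 and 4.67 in B2). The filter thus used the B2 values that were counted. Between dim probe sets and undetected ones no distinction could be made. Of the 9 keratins with more than 1 probe set, the probe sets had the same sign in B2 for 4 (KRT10, KRT4, KRT40 and KRT7) and different signs for 5 (KRT19, KRT222, KRT73, KRT74 and KRT78). Probe sets of KRT14, KRT16 and KRT17 could share sequence, as could those of KRT81, KRT83 and KRT86, and this was not checked.

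The keratins lie in a type II cluster that also holds KRT18, with 21 measured genes, and a type I cluster with 23. KRT8 and KRT18, both lower in B2, are next to each other in gene order. KRT5 was at 1.80 between measured neighbours KRT75 (0.58) and KRT71 (0.27). In the type I cluster the order KRT13, KRT15, KRT19, KRT9, KRT14, KRT16 had B2 differences of -1.37, -1.10, -0.29, 0.88, 3.10 and 0.76, with lower and higher genes side by side. By type, the median B2 difference was 0.099 for 23 type I genes and 0.21 for 20 type II genes. The annotated spans of keratin genes ran from 2.99 to 52.7 kb with a median of 7.29 kb, and 0 of 44 exceeded 100 kb, against a median of 24.7 kb and 16.9% over 100 kb for all genes.

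**Figure D4:**
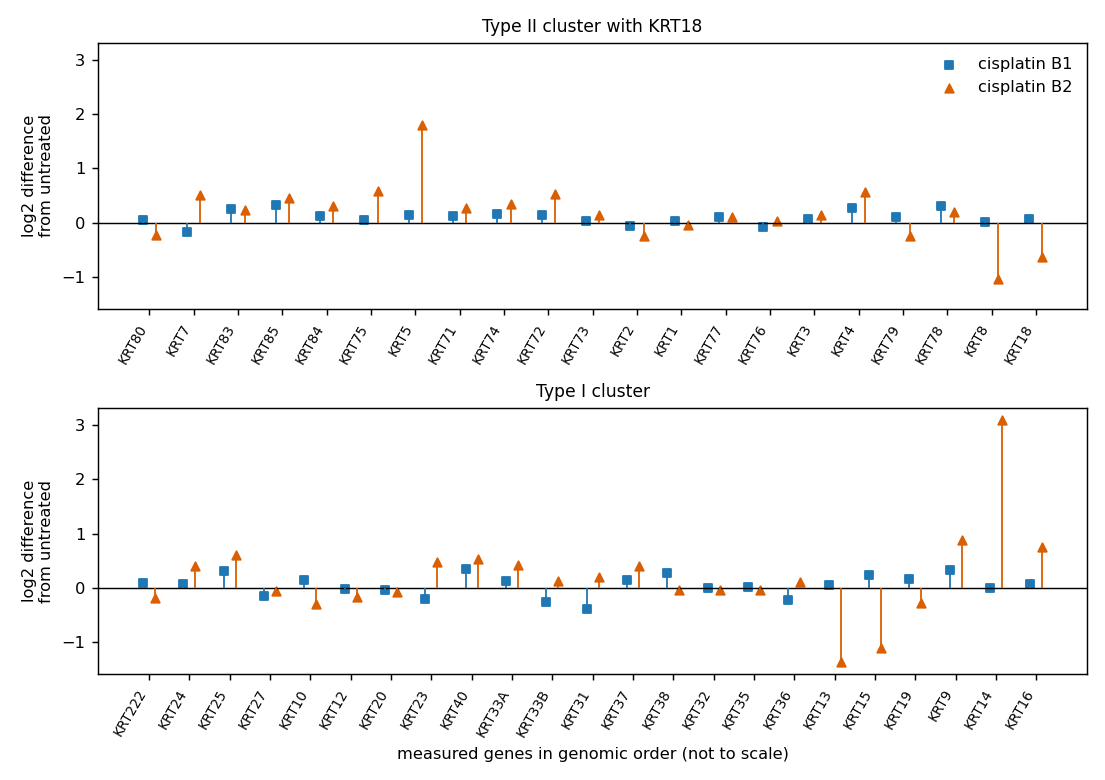
Log2 differences from the untreated array (vertical) of the measured keratins in genomic order, not to scale, with B1 as squares and B2 as triangles. In B2, KRT5 (1.80) is high between KRT75 (0.58) and KRT71 (0.27), KRT8 and KRT18 are low side by side, and KRT13 and KRT15 are low near the high KRT14.

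Genes on the list of filament linkers and plakins were mostly higher in B2 and mostly lower, by a smaller median, in B1. The list is mixed and also holds genes that do not anchor filaments to the membrane, such as CSNK1A1, TRADD and SFN. COL17A1 had no single-symbol probe set. Of the 22 listed genes with one, 17 were higher and 5 lower than untreated in B2, and 5 higher and 17 lower in B1. The medians were 0.48 in B2 and -0.12 in B1. Over all genes 56.6% were higher and 43.3% lower in B2, and 55% and 44.8% in B1. None was at least 2-fold different in the same direction in both arrays. In B2, 3 were at least 2-fold higher, the desmosomal cadherins DSC3 (359, 434 and 1125 in untreated, B1 and B2) and DSG3 (375, 321 and 790) and the hemidesmosomal integrin ITGB4 (253, 242 and 601), against 2.99% of all genes. Over all probe sets the B2 means were 1.61 for DSC3 (3 probe sets), 1.11 for DSG3 (2) and 0.80 for ITGB4 (5), which falls short of 2-fold, while the desmocollin DSC2 (0.47 by its brightest) averaged 1.31 over 4. The plakophilin PKP2 was lower in both (358, 236 and 125, log2 differences -0.60 and -1.52, and -0.94 in B2 on average over its 2 probe sets). It was the 1 listed gene at least 2-fold lower in B2 (4.5% of all genes were). The plakin MACF1 was the 1 at least 2-fold lower in B1 (1.51% of all genes were), at 901, 429 and 630 (-1.07 and -0.52). Over its 8 probe sets MACF1 averaged -0.78 in B1. DSC3 and PKP2 are the list's largest mean differences. DSG3 and ITGB4 were named because they passed the size rule in B2, and MACF1 because it passed in B1. DSC2 was named for its mean over all probe sets. These grounds were chosen after the values were seen.

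Regulators of keratin genes included the list members that differed in both arrays. Of 27 measured regulators, 12 were above and 8 below the untreated level in both cisplatin arrays, against 39.2% and 27.4% of all genes, and the medians were 0.086 and 0.11. JUN, part of AP-1, was at 930, 2081 and 2041, and OVOL1, an epithelial repressor, at 130, 349 and 404. By their brightest probe set these 2 of 27 were at least 2-fold higher in both B1 and B2, against 0.142% of all genes. Over all probe sets JUN kept 1.17 and 1.11 (4 probe sets), whereas OVOL1 averaged 0.90 and 1.12 (2 probe sets) and so missed 2-fold in B1. The keratins did not show such a difference in B1. GATA3, a transcription factor of epithelial lineages, was level in B1 and low in B2 (1022, 883 and 165, log2 differences -0.21 and -2.63), the 1 regulator at least 2-fold lower there (4.5% of all genes were). In B1, 3 regulators were at least 2-fold lower (1.51% of all genes): GRHL2, an epithelial grainyhead factor, at 593, 198 and 305 (-1.58 and -0.96), GRHL3 at 108, 47.7 and 102 (-1.18 and -0.079), and SOX2, a squamous lineage factor, at 5656, 2416 and 5308 (-1.23 and -0.092). In B2, 4 regulators were at least 2-fold higher (2.99% of all genes were): JUN, OVOL1, PRDM1 and EHF. PRDM1 was at 106, 67.7 and 277 (-0.64 and 1.39) and EHF at 482, 513 and 1077 (0.091 and 1.16). Over all probe sets their B2 means were 0.99 for PRDM1 (3 probe sets) and 0.78 for EHF (6), which falls short of 2-fold. GATA3, GRHL2, GRHL3, SOX2, PRDM1 and EHF were named after their values were seen. The limma adjusted p of every regulator was at least 0.969, with 3 of 27 under an unadjusted 0.05 (2.86% of all genes were).

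Among 16 other intermediate filament genes, VIM and NEFL had the largest mean differences. Vimentin, the filament of mesenchymal cells, was at 78.8, 97.5 and 565 (0.31 and 2.84). Its 2 probe sets averaged 0.011 and 1.42, so they disagreed, and the dimmer one did not show the B2 difference of the brightest. NEFL, a neurofilament, was at 27.5, 21.6 and 160 (-0.35 and 2.54, on average -0.14 and 1.66 over its 3 probe sets). PRPH was the remaining gene of the list past 2-fold in B2 (1.06), which makes 3 of 16, against 2.99% of all genes. The list's medians were -0.0047 and 0.12.

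**Figure D5:**
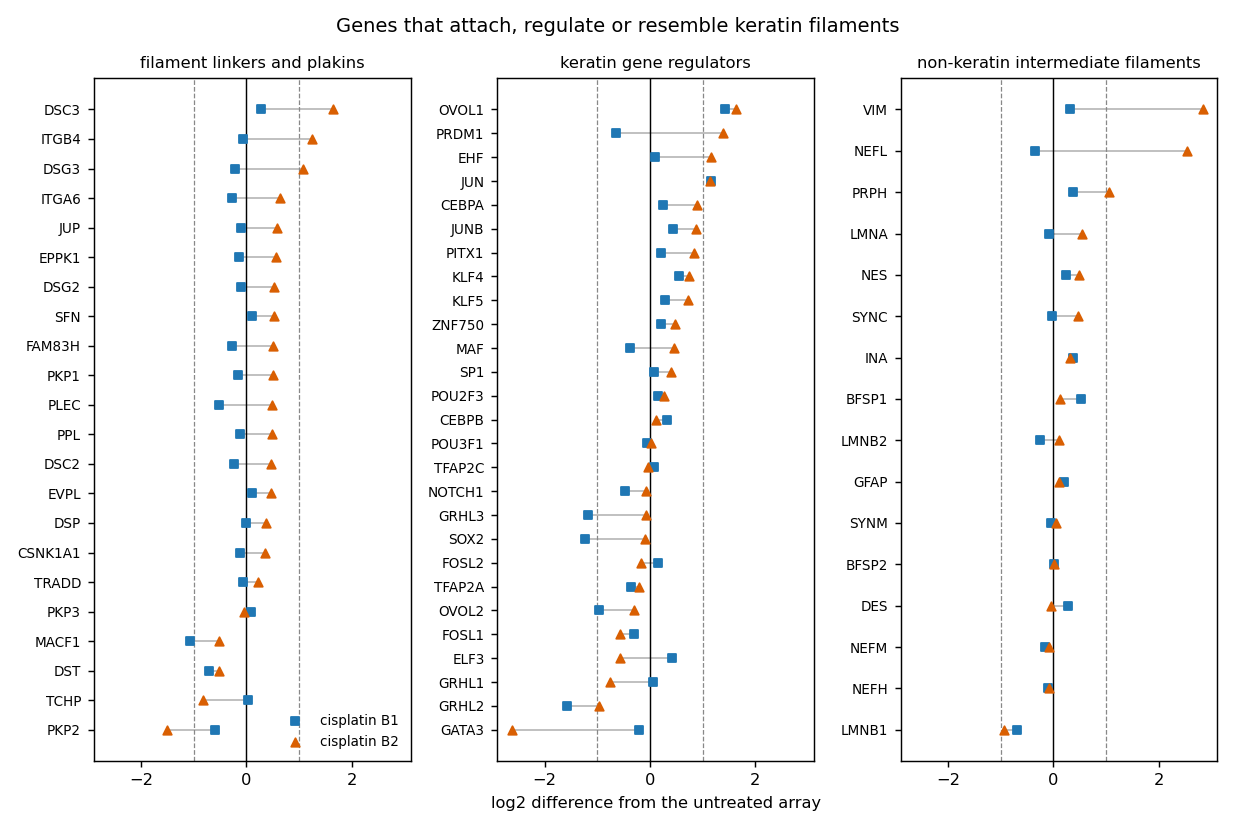
Log2 differences from the untreated array (horizontal) of linker genes, keratin gene regulators and other intermediate filament genes, with B1 as squares, B2 as triangles and dashed lines at 2-fold. Most genes of the mixed linker list lie right of 0 in B2, while JUN and OVOL1, by their brightest probe sets, pass 2-fold in both arrays.

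Markers were read beside the keratins. Of 13 squamous markers 11 had values, as KRT6A and TP63 had no single-symbol probe set. The 11 had summed intensities of 33471 (untreated), 31001 (B1) and 52999.8 (B2). Most of each sum came from S100A2 (9444, 9338 and 15716), SFN (8776, 9458 and 12581), PERP (6511, 6591 and 9316) and SOX2 (5656, 2416 and 5308). None of these was 2-fold different in B2, and SOX2 was lower in B1 (-1.23). In B2, 5 of 11 were at least 2-fold higher, against 2.99% of all genes. They were KRT5, KRT14, DSC3, DSG3 and CLCA2, a squamous chloride channel regulator (30.2, 36.3 and 307). KRT5 and KRT14 are keratins of this report, and DSC3 and DSG3 also stand among the linkers. Glandular epithelium markers (9 of 9) summed to 357, 346 and 443, fibroblast markers (10 of 10) to 363, 394 and 487, leukocyte markers (7 of 9) to 177, 195 and 181, and endothelial markers (7 of 7) to 139, 166 and 162. Of the glandular markers, KRT7 and KRT20 are also keratins of this report. KRT7 (146, 129 and 208) was the brightest of that list. Of the fibroblast markers, THY1 (59.5, 61.6 and 144) was the 1 at least 2-fold higher in B2, against 2.99% of all genes. COL1A1 (122, 155 and 159) was the brightest of them, with a B2 mean of 0.77 over its 5 probe sets. The dimmest was POSTN (7.32, 7.09 and 7.62). Among leukocyte markers PTPRC was the dimmest (6.24, 5.24 and 5.50). No value is 0 on this scale. In bulk RNA, more cells of a type and more RNA per cell cannot be told apart, and the part of any of these markers in the keratin differences was not tested.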

How the data were processed

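The authors deposited linear intensities for 54675 probe sets on 3 Affymetrix arrays, processed with RMA per the submitters' processing notes; no version was given in those notes. Log2 was taken with no pseudocount and no further normalization. Probe sets for controls (62), with several symbols (1801) or unlisted in the platform annotation (11721) were not used, which left 41091. Gene names follow GRCh38.p14, matched by gene number for 19735 of 19775 genes. Cisplatin was set against untreated with limma 3.58.1 in R 4.3.3, adjusted by Benjamini-Hochberg over 19775 genes (threshold 0.05), with the spread of the cisplatin arrays assumed for the single untreated one, and the fit was tested on simulated data. The number of arrays limits the precision. Values are printed for keratins with a mean log2 of at least 6 or a 2-fold difference in either array. Listed genes are named if 2-fold different in both arrays or, failing that, among the 2 largest mean differences. Other listed genes and dimmer keratins with values (such as KRT4 and KRT1, partners of named ones) were added after their values were seen. Members and lists were chosen with earlier results of these data known. Alternatives varied the probe set, normalization, dim-gene filter, variance prior, fold threshold and cisplatin array.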

Additional observations from a re-analysis of the deposited data

How the results depend on the processing

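The 0 keratins past limma's threshold were also 0 with the mean of all probe sets, without probe sets ending in _x_at, with quantile normalization, median centring, a mean log2 value of at least 6, an intensity trend or a robust prior, and at an unadjusted p under 0.05. With 1 residual degree of freedom no gene of 19775 passed, so this count says nothing about stability. At 1.5-fold in place of 2-fold, 5 keratins were higher and 4 lower in B2. With 1 cisplatin array left out in turn, the keratins 2-fold higher in the remaining array numbered 0 to 2 and those lower 0 to 3, in each case the larger number from B2 alone. Without B2, the basal and simple pairs showed no 2-fold difference. No limma fit was possible with 1 cisplatin array, as no residual degrees of freedom remain. Of 100 recomputed values of single keratins, 98 moved by less than the SD of that gene's own cisplatin pair and 2 by more. Those 2 were KRT83 in B2, to 0.19 with quantile normalization and to 0.20 with median centring. Of the values past 2-fold, 0 changed sign. Below 2-fold, 2 changed sign: KRT7 in B1 (to 0.16 with the mean of all probe sets) and KRT14 in B1 (to 0.11 with quantile normalization). The SD was wide where B2 stood apart (2.20 for KRT14, 1.17 for KRT5). Where a keratin had 1 probe set, the probe set alternatives could not move its value. The count of 98 therefore says little about stability. KRT8 and KRT18 have no value without probe sets ending in _x_at. The baseline of both other arrays was chosen after seeing the data. No paired analysis was possible because the untreated group has 1 array. Brightness limits the dim keratins: without detection calls, their levels may be background.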

Other observations

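The 5 genes whose B1 and B2 differences lay nearest those of KRT5 over all 19775 genes were LINC01133 (0.15 and 1.77), FGF12 (0.17 and 1.78), SERPINI1 (0.13 and 1.86), FGFR3 (0.18 and 1.76) and RPL39L (0.095 and 1.75). The likeness is a root mean square distance of 0.022 to 0.054 over 2 differences that share the untreated array.

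Keratin-named probe sets outside the 44 genes gave further values. The antisense gene KRT10-AS1 had intensities of 560 (untreated), 646 (B1) and 394 (B2) (0.20 and -0.51), beside 0.15 and -0.31 for KRT10. The 2 probe sets of the pseudogene KRT8P12 differed by 0.34 and 0.55 in B1 and by -0.092 and -0.26 in B2, and that of KRT17P5 by -0.15 and 0.22.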
